A study of Mus musculus with 23 samples.

Results

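The results concern 5 bins in the middle of the gene desert beside Shh, the gene of the secreted signal Sonic hedgehog, in 5C libraries of the mouse. 5C is a chromosome conformation capture assay that reads, with oligonucleotides placed at HindIII sites, how often fragments of a region were ligated to each other. The region was divided into 80 bins of 21 kb, numbered from 0, on chromosome 5 of the mm9 build. The matrices name the bins bin43|mm9|chr5:29220087-29241087, bin44|mm9|chr5:29241087-29262087, bin45|mm9|chr5:29262087-29283087, bin49|mm9|chr5:29346087-29367087 and bin50|mm9|chr5:29367087-29388087. They were chosen by their insulation values, since contact across them was higher in the stem cell lines DCTCF2, DCTCF3 and DCTCF4 against wild type, so those rises are described here and not tested. Described with them are their contacts with every bin outside bins 27 to 58, the stretch called the desert below (chr5:28884087-29556087). These contacts were 230 of the 2926 bin pairs that hold a value, and the desert holds 26 other bins with values.

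The 19 libraries came from E14 mouse embryonic stem cells (ESC) and from E11.5 embryos of strain CD1. Wild type ESC and the edited lines DCTCF1, DCTCF2, DCTCF3, DCTCF4, DCTCF5 and D35 had 2 libraries each. The embryo groups were anterior limb bud (2 libraries), posterior limb bud (2 libraries) and embryo body (1 library), all unedited. The sources used here do not give what each edit removed, how many clones stand behind a line or whether embryos were pooled. The labels call the libraries of a group biological replicates, and a technical mark stands in the run name of DCTCF2 replicate 2, so the spread between libraries may be technical in part. A second deletion, D700, was left out because its matrices lack the desert. Each of the other libraries had values for the 5 bins with 46 outside bins, and the library totals of the deposited contact values ran from 62111.9 to 106303.

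CTCF is a DNA-binding protein that, with the ring complex cohesin, marks the ends of many contact domains, and a site that holds back contact between its flanks is called insulating. Shh is transcribed at the posterior margin of the limb bud, in the floor plate and in parts of the brain. Its brain enhancers are known to be spread along the desert, and its limb enhancer lies in an intron of Lmbr1, beyond the far end. Rbm33 precedes and Rnf32 and Lmbr1 follow Shh in the order of protein-coding genes (RefSeq, GRCm38.p6). No gene or enhancer was placed in the bins, since that annotation is of another build than the matrices.

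Contact across the 5 bins was given by the insulation value, the log2 mean contact of the 5 bins before a bin with the 5 that follow, from which the mean over all bins of the library was subtracted. A low value marks a place where contact across is weak. The value leaves out the bin's own contacts, and windows of neighbouring bins share pairs. By this measure 2 of the 5 bins were minima. Bin 44 was a local minimum in 14 of 19 libraries, with a prominence of at least 0.2 in 7, and bin 50 in 13 of 19, with that prominence in 8. At bin 44 the exceptions were both DCTCF1, both DCTCF2 and 1 DCTCF4 library, and at bin 50 they were all 6 libraries of DCTCF1, DCTCF2 and DCTCF4. The contacts of bin 50, low in these 6 libraries (below), enter the values of the 5 bins on each side but not its own. In DCTCF1 the difference from wild type was -0.16 at bins 49 and 51 and 0.15 at bin 50. In DCTCF2 and DCTCF4 it was above 0 at all of these bins. The part of the low contact of bin 50 in the lost minimum was not tested. Bins 43, 45 and 49 were local minima in 0 of 19 libraries, which goes against the name sub-boundary for these 3. Bins 43 and 49 lay on the local crest beside each minimum, with medians of 0.21 and 0.22 over all 19 libraries. A prominence of at least 0.2 was reached in 4 of 5 embryo libraries at bin 44 and in 4 of 5 at bin 50. In ESC it was reached in 3 of 14 and 4 of 14. The 14 include the 6 libraries of DCTCF2, DCTCF3 and DCTCF4, whose high values chose the bins and none of which reached it. These shares therefore do not compare ESC with embryo. Without the 6, the median insulation value at bin 44 was -0.13 in ESC and -0.15 in embryo libraries. At bin 50 it was -0.14 and -0.21. In wild type ESC the prominence at bin 44 was 0.011 and 0.079, and bin 46, which is not among the 5, had the lower mean (-0.12 against -0.11). At bin 50 it was 0.33 and 0.13.

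**Figure D1:**
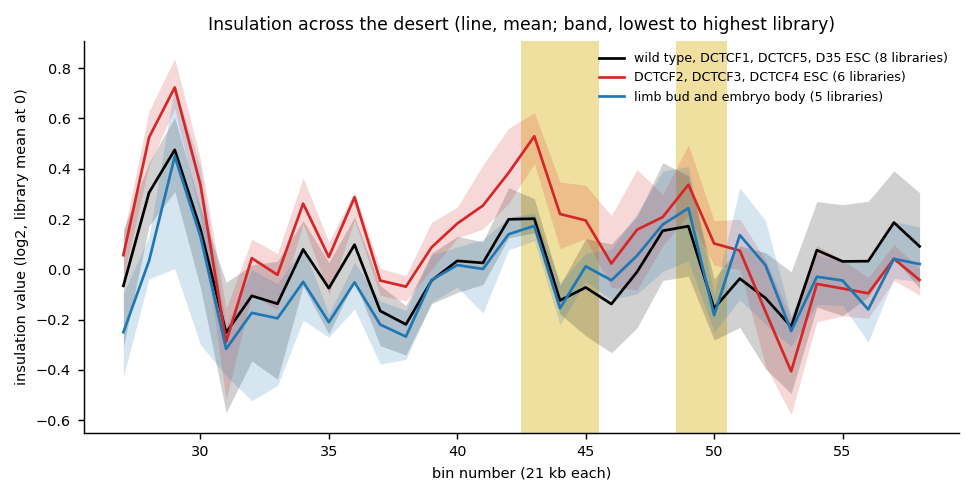
Insulation value (log2, library mean at 0) against bin number for the desert, with the 5 bins shaded. Lines are means and bands run from the lowest to the highest library, for the 6 libraries of DCTCF2, DCTCF3 and DCTCF4, the 8 other ESC libraries and the 5 embryo libraries. Bins 44 and 50 are dips in the other ESC and the embryo sets, and the DCTCF2 to DCTCF4 set lies above both from bin 43 to bin 44.

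At bin 44 both wild type ESC libraries had insulation values below 0, at -0.14 and -0.07. The 6 libraries of the 3 lines that chose the bins lay above 0, from 0.08 to 0.35, while DCTCF1, DCTCF5, D35 and all 5 embryo libraries lay between -0.22 and -0.05. The mean was 0.31 ± 0.06 in DCTCF2, 0.20 ± 0.07 in DCTCF3 and 0.15 ± 0.10 in DCTCF4 (SD, n = 2 each), against -0.11 in wild type. Bin 44 thus lay below the library mean in each of the 13 libraries outside these 3 lines and above it in each of the 6 libraries of them.

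At bin 43 the wild type libraries had insulation values of 0.17 and 0.28, and the 6 libraries of DCTCF2, DCTCF3 and DCTCF4 lay from 0.42 to 0.62. The other 6 ESC libraries and the embryo libraries stayed between 0.11 and 0.26. At bin 45 the wild type libraries were at -0.13 and 0.01, the 6 libraries at 0.12 to 0.33, and the embryo libraries at -0.05 to 0.06. The highest other library at bin 45, DCTCF5 replicate 2, was at 0.12, level with the lowest of the 6.

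At bin 50 the wild type libraries had insulation values of -0.28 and -0.11, and the 6 libraries lay from 0.02 to 0.19. DCTCF1 was also above wild type, at -0.05 and -0.04, whereas DCTCF5 and D35 ran from -0.26 to -0.08 and the embryo libraries from -0.25 to -0.10. Bin 49 separated the groups least. Its wild type libraries were at 0.10 and 0.22, the 6 libraries at 0.22 to 0.50, and the other ESC lines and the embryo libraries together ranged from -0.03 to 0.41. DCTCF3 alone, at 0.46 and 0.50, lay above every library of the other groups at bin 49.

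**Figure D2:**
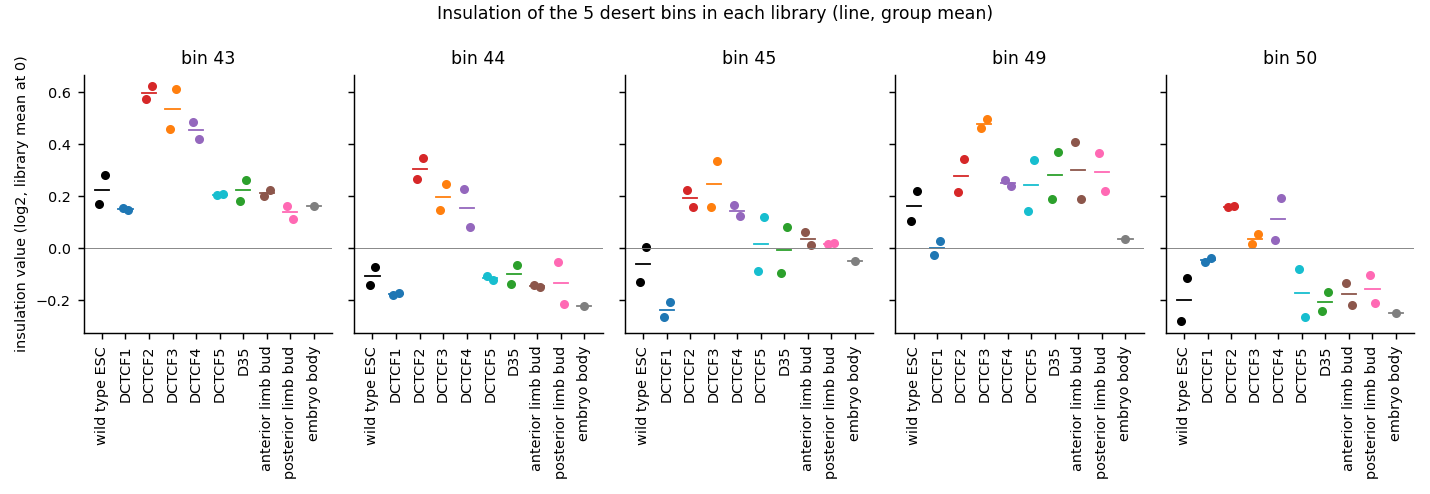
Insulation value (log2, library mean at 0) of each of the 5 bins in all 19 libraries, with a point for each library and a line for the group mean. DCTCF2, DCTCF3 and DCTCF4 lie above 0 at bins 44 and 50, where the wild type, DCTCF1, D35 and embryo libraries lie below it.

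The choice rests on these values, so the bins beside them were set next to them. The difference of DCTCF2 from wild type was 0.28 at bin 42, 0.37 at bin 43, 0.41 at bin 44, 0.25 at bin 45 and 0.10 at bin 46. In DCTCF3 it was 0.21 at bin 42, 0.31 at each of bins 43, 44 and 45 and 0.26 at bin 46. DCTCF4 had differences of 0.08 for bin 42, 0.26 for bin 44 and 0.07 for bin 46. At bin 49 it was 0.12 in DCTCF2, 0.32 in DCTCF3 and 0.09 in DCTCF4, and at bin 51 it was 0.05, 0.22 and 0.09. The edges of the chosen bins were therefore gradual in DCTCF3 and sharper in DCTCF4. Over all bins, both libraries of the line lay above both wild type libraries at 30.0% of 70 bins in DCTCF2, 35.7% in DCTCF3 and 37.1% in DCTCF4. At bin 49 only 1 of the 2 DCTCF2 libraries lay above both wild type libraries.

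Insulation of the 5 bins was tested between tissues, where the choice used no library. Posterior and anterior limb bud did not differ at the 5 bins beyond the spread. Bin 43 was at 0.20 and 0.22 in anterior and 0.16 and 0.11 in posterior limb bud, and its difference of -0.08 ± 0.12 (SE) was the widest of the 5. By limma none of the 5 bins passed, nor any of 70 bins (0.0%), with 0 of the 5 and 6 of the 70 at an unadjusted p under 0.05. The other differences ran from -0.02 to 0.02 with the same SE. With 2 libraries on each side, differences smaller than a few times this SE were not detectable.

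The mean of the DCTCF1, DCTCF5 and D35 ESC libraries was compared with the 4 limb bud libraries in the same way. It differed from limb bud by 0.00 ± 0.04 at bin 43, -0.01 ± 0.05 at bin 44 and 0.01 ± 0.05 at bin 50. At bin 45 it was -0.12 ± 0.06 and at bin 49 -0.14 ± 0.06 (limma, adjusted p 0.102 and 0.0774). The lines disagreed at both bins, and DCTCF1 lay furthest below limb bud. At bin 49 the mean was 0.001 in DCTCF1, 0.24 in DCTCF5 and 0.28 in D35. Anterior and posterior limb bud were at 0.30 and 0.29. At bin 45 the lines were at -0.236, 0.017 and -0.008 in the same order, against 0.037 and 0.018. None of the 5 passed, 2 at an unadjusted p under 0.05, while 28 of 70 bins passed (40.0%). With a window of 8 bins, 4 of the 5 passed, each lower in ESC, and so did 44 of 64 bins over the region, 19 of them lower. The difference at bin 44 was then -0.12 (limma adjusted p 0.0136), and that at bin 50, the exception, was 0.01.

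The second measure was how strongly the 5 bins contacted bins beyond the desert. Far pairs of the deposited matrices repeat values of neighbouring bins. In each library the 230 pairs held 120 to 124 distinct values, and bins 44 and 45 had the same value with 34 of the 46 outside bins. Contacts of these 2 bins are therefore not independent of each other. Relative to the mean at the same separation in the same library (observed over expected), bins 44 and 45 had more outside contact than most of the desert. The outside mean of bin 44 was above 1 in 19 of 19 libraries, from 1.08 to 1.25, and ranked from 1 to 4 among the 31 desert bins. The outside mean of bin 45 was above 1 in 18 of 19, from 0.96 to 1.26. Bin 43, their neighbour, was below 1 in every library, from 0.78 to 0.98. Observed over expected values do not correct for the overall signal of a bin. In wild type ESC the mean contact within the desert was also high at bin 44, at 33.1 and 37.6. It was 29.4 and 30.7 at bin 45 and 21.35 and 23.9 at bin 43. The outside means therefore do not show a preference for bins beyond the desert. Bin 49 ran from 0.88 to 1.10. Bin 50 had the widest range, from 0.53 to 1.26, and held both the first and the last rank among the 31 bins in different libraries.

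The strongest outside partners were largely common to bins 43, 44, 45 and 49, while those of bin 50 were more mixed. Bin 24 (chr5:28821087-28842087) was the partner of highest observed over expected contact in 52 of 95 combinations of a bin and a library, bin 61 (chr5:29598087-29619087) in 24 and bin 21 (chr5:28758087-28779087) in 11. The same 3 bins led in the 26 other desert bins, with 206, 148 and 42 of 494 combinations, so the partners are those of the desert at large. At bin 50 the first partner was bin 24 in 6 libraries, bin 21 in 5, bins 20 and 3 in 3 each and bin 61 in 2. Bins 44 and 45 share their value with bin 24, so their combinations are not independent. Bin 44 with bin 61 had a contact value of 46.4 in the median ESC library (34.5 to 79.5, n = 14) and of 37.5 in the median embryo library (26.3 to 42.6, n = 5). Bin 49 with bin 24 was at 39.7 in the median ESC library (21.2 to 55.7) and at 27.7 in the median embryo library (24.3 to 44.7). Bin 50 with bin 61 spanned 8.98 to 69.6 over the ESC libraries, the widest of these pairs.

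Bin 50 stood apart from the other 4 bins in how its outside contact differed between lines. Its mean contact with the outside bins, bin 65 left out and libraries scaled to 1 total, was 11.1 and 10.8 in wild type ESC. It was 6.46 and 6.72 in DCTCF1, 7.52 and 7.06 in DCTCF2 and 7.66 and 7.09 in DCTCF4. In DCTCF3 it was 11.3 and 10.9, at the wild type level. In DCTCF5 the replicates disagreed, at 9.58 and 15.5, and in D35 both were high, at 13.6 and 14.8. The 4 limb bud libraries ran from 10.8 to 13.9 and the body was at 13.2. The ratio to wild type was 0.603 in DCTCF1, 0.667 in DCTCF2, 0.675 in DCTCF4, 1.01 in DCTCF3 and 1.30 in D35.

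In 5 of the 6 libraries of DCTCF1, DCTCF2 and DCTCF4 bin 50 had the lowest ratio to wild type of the 31 desert bins, and in DCTCF4 replicate 1 the next to lowest. Against wild type of the same run year, a comparison chosen after seeing the data, the ratio was 0.583 and 0.623 in DCTCF1, 0.658 in DCTCF2 and 0.684 in DCTCF4. The contacts of bin 50 within the desert were lower in the same libraries, at 0.432 to 0.701 of wild type. The low contact of bin 50 in these 3 lines thus held both inside and outside the desert. Insulation at bin 50, which leaves out the bin's own contacts, was higher than wild type in each of these 3 lines and in DCTCF3. In DCTCF3 the outside contact of bin 50 was at the wild type level. Its contact within the desert was at 1.265 and 1.241 of wild type.

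By segment, bin 50 with bins 0 to 20 was at 8.59 ± 0.32 in wild type, 5.92 ± 0.53 in DCTCF1, 5.21 ± 0.68 in DCTCF2 and 5.50 ± 0.10 in DCTCF4 (SD, n = 2 each). With bins 59 to 64 it was at 24.5 ± 0.17 in wild type, 16.9 ± 1.89 in DCTCF2 and 16.9 ± 5.80 in DCTCF4. With bin 21, bin 50 was at 13.7 to 15.5 in wild type, 7.10 to 8.89 in DCTCF1, 11.47 to 29.2 in DCTCF2, 10.5 to 20.4 in DCTCF4 and 24.4 to 31.7 in DCTCF3. DCTCF1 was thus lower here too, while DCTCF2 and DCTCF4 overlapped wild type. They also overlapped it with bin 65, at 8.16 to 20.6 and 3.49 to 22.5 against 17.2 to 17.6, where DCTCF1 was at 8.38 to 8.69.

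The contacts of the 5 bins with one another showed where bin 50 differed. Bin 49 with bin 50, its neighbour, was at 82.3 and 94.8 in wild type, 24.6 and 25.3 in DCTCF1, 54.6 and 50.3 in DCTCF2, 35.1 and 59.2 in DCTCF4 and 134.0 and 106.4 in DCTCF3. Bin 45 with bin 50 was at 36.6 and 36.2 in wild type and between 11.47 and 20.4 in all 6 libraries of DCTCF1, DCTCF2 and DCTCF4. Bin 44 with bin 49, a pair of the same separation that leaves out bin 50, was at 36.7 and 37.4 in wild type and between 29.4 and 41.7 in those 6 libraries. Bin 44 with bin 45 was at 125.1 and 141.6 in wild type, 101.4 and 106.9 in DCTCF1, and 134.7 to 169.0 in DCTCF2, DCTCF3 and DCTCF4. The replicates of DCTCF5 again stood apart at bin 49 with bin 50, at 35.5 and 155.0.

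**Figure D3:**
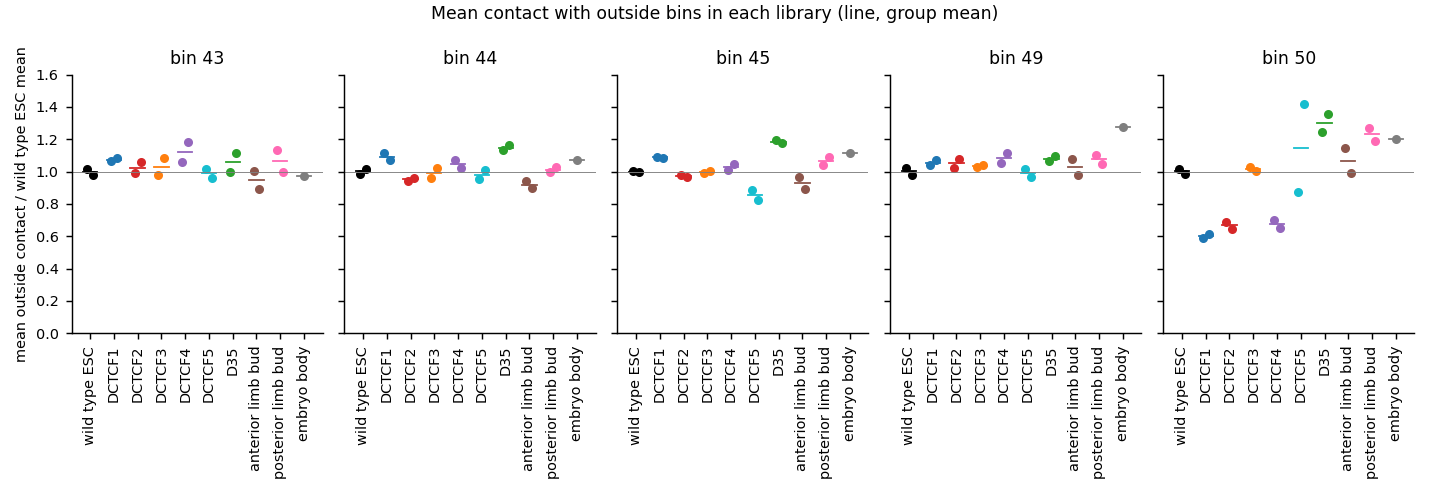
Mean contact of each of the 5 bins with the outside bins, divided by the mean of the 2 wild type ESC libraries, in all 19 libraries (points) with group means (lines). At bin 50 the DCTCF1, DCTCF2 and DCTCF4 libraries lie from 0.591 to 0.700, and bins 43, 44, 45 and 49 run from 0.823 to 1.27 over all libraries.

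The number of assayed fragments differed between the bins. Bin 50 holds 1 HindIII fragment of the assay, Shh_342 (chr5:29384407-29389154, 4748 bases), which crosses the border with bin 51. Bins 43, 44, 45 and 49 hold 5, 7, 6 and 3 fragments, and the median desert bin holds 4. Over the 19 libraries the SD of the log2 mean outside contact was 0.42 at bin 50, the highest of the 31 desert bins, against 0.09 to 0.29 in the bins other than the 5 and 0.09 to 0.14 in bins 43, 44, 45 and 49. The other 2 desert bins with 1 fragment, bins 28 and 31, had SDs of 0.22 and 0.14. Bin 51, with 3 fragments, had the next highest SD (0.29) and was the only other desert bin with all 6 libraries of DCTCF1, DCTCF2 and DCTCF4 below both wild type libraries, at ratios of 0.786, 0.745 and 0.810. The part of the fragment number in the values of bin 50 was not tested.

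**Figure D4:**
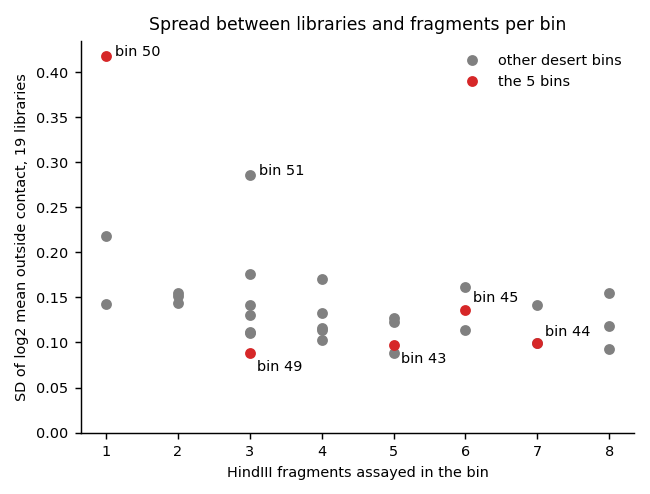
SD over 19 libraries of the log2 mean outside contact (vertical axis, log2 units) against the number of HindIII fragments assayed in the bin, for 31 desert bins. Bin 50, with 1 fragment, is highest at 0.42, and the other 4 of the 5 bins lie from 0.09 to 0.14.

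Outside contact was tested by segment for DCTCF1, DCTCF5 and D35, whose contrasts did not choose the bins, although the wild type libraries took part in the choice. The segments were bins 0 to 20, bin 21, bins 22 to 26, bins 59 to 64, bin 65 and bins 66 to 79, and the value was the mean contact of a bin with a segment. Both DCTCF1 libraries lay outside the wild type range at 22 of 30 means of the 5 bins (12 higher), with 56.5% over all bins. By limma none of 30 means of the 5 bins passed, 7 at an unadjusted p under 0.05, against 3 of 457 means over all bins (0.656%), where 82 had that p. Bin 50 with bins 59 to 64 was at 11.1 and 9.87 in DCTCF1 and at 24.4 and 24.6 in wild type. The libraries did not overlap, and the log2 difference of -0.95 ± 0.22 (SE) had a limma adjusted p of 0.0558. Bin 44 with bin 21 was at 15.6 and 14.6 against 25.5 and 26.8, a difference of -0.64 ± 0.17 (adjusted p 0.0926). Bin 43 with bin 21 was at 11.0 and 9.21 against 15.0 and 13.3 (-0.35 ± 0.11, adjusted p 0.152). All 5 bins had a lower mean with bin 21 in DCTCF1 than in wild type, with a median difference of -0.38, as had 25 of the 26 other desert bins (median -0.34). With values scaled to the library median, which moved the median of all 457 differences from 0.04 to -0.07, these 3 means passed (limma adjusted p 0.0445, 0.0371 and 0.0304), as did 24 of 457 over all bins, 23 of them lower. With observed over expected values 2 of the 30 means passed, bins 43 and 44 with bin 21, and 16 of 457 over all bins, 13 of them lower.

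In DCTCF5 none of the 30 means passed, 5 at an unadjusted p under 0.05, and none of 457 did (0.0%), 45 at that p. Bin 45 with bins 59 to 64 was at 19.8 and 18.7 against 25.1 and 25.9 in wild type (-0.33 ± 0.12, adjusted p 0.444). Bins 44 and 45 with bin 65 share 1 value in each library, which was 15.8 ± 0.54 against 11.7 ± 0.34 (SD, n = 2 each; difference 0.32, limma adjusted p 0.444). These libraries did not overlap with wild type, as at 15 of the 30 means and at 36.3% of all 457. In D35 the shared value ran from 10.41 to 15.11, although bin 65 is listed there at 0 with bins 43, 49 and 50. Whether the shared value reflects contact of bin 65 itself was not tested.

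Bin 65 is listed at 0 with bins 43, 49 and 50 in D35 and was left out of that comparison. In D35 both libraries lay outside the wild type range at 15 of 25 means (14 higher), with 45.9% over all bins. None of the 25 passed, 3 at an unadjusted p under 0.05. Over all bins 8 of 377 passed (2.12%), 65 at that p. Bin 43 with bins 59 to 64 was at 24.4 and 23.1 in D35 and at 17.1 and 18.8 in wild type (0.29 ± 0.08, adjusted p 0.0723). Bin 45 with the same segment was at 38.6 and 32.4 against 25.1 and 25.9 (0.37 ± 0.12, adjusted p 0.0945), and bin 44 with bins 66 to 79 at 9.81 and 12.0 against 8.00 and 8.19 (0.26, adjusted p 0.237). All 5 bins had higher means with bins 59 to 64 (0.22 to 0.37), as had 24 of the 26 other desert bins (median 0.23). When each side of the desert was taken as 1 segment, 3 of 10 means of the 5 bins passed, all higher in D35, and 24 of 152 over all bins, 18 of them higher. Both D35 libraries were run in a later year than any wild type library, so line and run year cannot be told apart.

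Of single outside pairs of the 5 bins, 0 of 230 passed in DCTCF1, 0 of 230 in DCTCF5 and 0 of 225 in D35, with 32, 15 and 23 at an unadjusted p under 0.05. Over all pairs 0.0% of 2853, 0.0% of 2853 and 1.12% of 2778 passed. The smallest p in DCTCF1 belonged to bin 50 with bin 59, at 12.9 and 9.07 against 32.2 and 41.03 in wild type (-1.41 ± 0.26, limma adjusted p 0.145). The next were bin 50 with bin 20 (3.45 against 30.3 in the mean, adjusted p 0.222) and with bin 26 (3.87 against 14.8, adjusted p 0.227). In DCTCF5 they were bins 44 and 45 with bin 12 and bin 44 with bin 13, which share the values 4.15 against 7.29 (adjusted p 0.686). In D35 they were bin 49 with bins 2 and 3, which share the values 6.60 against 13.0 (adjusted p 0.112), and bin 44 with bin 67 (23.6 against 13.6, adjusted p 0.232).

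The 3 lines that chose the bins showed these outside means as a description. Of the 30 means, both libraries lay outside the range of wild type in 19 in DCTCF2 (13 lower), 11 in DCTCF3 (6 lower) and 13 in DCTCF4 (8 higher), or 63.3%, 36.7% and 43.3%. Over all bins these shares were 46.4%, 38.5% and 41.6%. Bin 50 with bins 22 to 26 was at 19.5 ± 1.85 in wild type, 11.9 ± 2.59 in DCTCF2, 17.4 ± 0.89 in DCTCF3 and 8.83 ± 1.18 in DCTCF4 (SD, n = 2 each). For bins 44 and 45 the ratio of the mean over all outside bins to wild type was 0.951 and 0.974 in DCTCF2, 0.991 and 0.996 in DCTCF3 and 1.04 and 1.03 in DCTCF4. Under median scaling it was 1.07 and 1.10 in DCTCF2, and with observed over expected values that of bin 45 was 0.993 in DCTCF4, so these directions depended on the scaling. Bin 45 with bin 21 was at 27.6 and 33.4 in DCTCF2 and at 29.1 and 33.6 in DCTCF4, above the 18.8 and 24.3 of wild type.

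Posterior and anterior limb bud were compared to ask whether outside contact of the 5 bins differs where Shh is transcribed. None of 30 means passed, 2 at an unadjusted p under 0.05, and none of 457 did (0.0%), 37 at that p. Bin 43 with bin 65 was at 11.7 and 9.53 in posterior and 4.44 and 5.29 in anterior limb bud (0.64 ± 0.13, limma adjusted p 0.476). Bin 50 with bin 21 was at 40.2 and 28.4 against 21.3 and 16.1 (0.71 ± 0.20, adjusted p 0.511), and bin 45 with bins 66 to 79 at 10.9 and 11.0 against 8.70 and 7.30 (0.29, adjusted p 0.511). Posterior and anterior libraries did not overlap at these 3 means, which were picked as those of smallest p, and the fit across all bins called none. The share of means without overlap was not counted over all bins, so the lack of overlap is not a result about the 5 bins. Of 230 single pairs 0 passed (0.0% of 2853), 19 at an unadjusted p under 0.05. Bins 44 and 45 with bin 6 and bin 44 with bin 7, which gave the smallest p, share the values 16.3 ± 1.65 in posterior and 8.08 ± 0.24 in anterior limb bud (SD, n = 2 each, adjusted p 0.559).

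Fragment counts gave a finer view of the limb bud. The matrices hold 343 fragments, 22 of them in the 5 bins, and their totals were 1022801 and 1383595 counts in anterior and 749738 and 1400833 in posterior limb bud. Of the counts of each bin, 22.4% ± 1.7 (bin 43), 20.1% ± 2.3 (bin 44) and 20.2% ± 2.4 (bin 45) lay with outside bins in anterior limb bud, against 36.9% ± 0.6 at bin 49 and 33.1% ± 0.4 at bin 50 (SD, n = 2 each). Posterior limb bud gave 25.7% ± 2.1, 21.4% ± 3.3, 21.8% ± 3.1, 36.0% ± 0.7 and 32.1% ± 4.8 in the same order. Bins 49 and 50 had the larger outside shares on both sides of the limb bud, and the sides were furthest apart at bin 43. Fragments of a bin differed more than the sides did, from 15.5% to 34.2% over the 5 fragments of bin 43 and from 10.0% to 28.9% over the 6 of bin 45. These shares were not corrected for separation, and no other desert bin was given one. By observed over expected contact, bin 49 ran from 0.93 to 1.01 in the limb bud libraries. Bin 44 (1.08 to 1.12) and bin 45 (1.07 to 1.13) lay above it, and bin 43 (0.82 to 0.92) below it. Bin 50 ran from 0.94 to 1.10.

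By edgeR's quasi-likelihood test 0 of 1589 fragment pairs of the 5 bins differed between the sides (0.0% of 22268 pairs), with 148 at an unadjusted p under 0.05. DESeq2 called 9 of 912, all lower in posterior limb bud, against 0.789% of 14065 pairs. The smallest p of edgeR was at fragment Shh_143 of bin 21 with Shh_290 of bin 44 (chr5:29246729-29247568), at 54 and 111 counts in anterior and 0 and 0 in posterior limb bud. Shh_154 of bin 23 with Shh_283 of bin 43 had 37 and 63 against 0 and 0, and Shh_162 of bin 24 with Shh_301 of bin 45 had 77 and 140 against 18 and 23 (edgeR adjusted p 0.579 for all 3). No molecular identifiers are described for these libraries, so counts are of reads and need not be independent molecules.

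Stem cells were compared with limb bud over the same outside means, with DCTCF1, DCTCF5 and D35 standing for the ESC. By limma 8 of 25 means passed, 6 higher in ESC, all with the segments next to the desert, and 2 lower, both with bin 21. This share is near that of all bins (124 of 377, 32.9%), so the count is not a result about the 5 bins. Of the 130 means of the 26 other desert bins 24 were higher and 5 lower. Median differences were -0.04 over the 25 means and -0.01 over all.

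Bin 43 with bins 59 to 64 was at 18.7 to 24.4 in the 6 ESC libraries and at 12.6 to 16.8 in the 4 limb bud libraries (0.36 ± 0.06, limma adjusted p 0.0012). Bin 44 with bins 22 to 26 was at 24.5 to 32.8 against 17.4 to 24.4 (0.40 ± 0.08, adjusted p 0.0018), and bin 43 with the same bins at 19.2 to 24.5 against 16.1 to 18.2 (0.29 ± 0.07, adjusted p 0.0093). These 3 means did not overlap between ESC and limb bud, and the share without overlap was not counted over all bins. Of the 26 other desert bins 25 were higher in ESC with bins 59 to 64 and 21 with bins 22 to 26. Bins 44, 45 and 49 with bins 59 to 64 were higher in ESC by 0.30, 0.21 and 0.28, with libraries that overlapped (adjusted p 0.0134, 0.0408 and 0.0115). Bin 50 was the exception at both segments, with differences of -0.27 and -0.19 that did not pass, but the 3 ESC lines disagreed there. With bins 22 to 26 bin 50 was at 9.86 in DCTCF1, 18.4 in DCTCF5 (10.6 to 26.2) and 21.9 in D35. Anterior and posterior limb bud were at 17.8 and 21.8. With bins 59 to 64 it was at 10.5 in DCTCF1, 30.7 in DCTCF5 (22.5 to 38.9) and 33.7 in D35, against 26.5 and 25.6. The calls of bins 45 and 49 with bins 59 to 64, of bin 44 with them and of bin 43 with bins 22 to 26 were lost with observed over expected values (adjusted p 0.596, 0.177, 0.149 and 0.0893). The call of bin 45 was also lost with median scaling (adjusted p 0.112) and without any 1 of 7 libraries, namely DCTCF1 replicates 1 and 2, DCTCF5 replicate 1, D35 replicate 1, anterior replicates 1 and 2 and posterior replicate 1 (adjusted p 0.0686 to 0.150). That of bin 44 with bins 59 to 64 was lost with median scaling (adjusted p 0.0606) and without anterior replicate 2 or posterior replicate 1 (adjusted p 0.0510 and 0.0598).

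With bin 21, bin 49 was at 14.8 to 23.3 in ESC and at 25.4 to 44.5 in limb bud (-0.66 ± 0.18, limma adjusted p 0.0122), without overlap. It missed the threshold without anterior limb bud replicate 2 (adjusted p 0.0732). Bin 43 was at 9.21 to 14.3 against 14.1 to 20.2 (-0.33 ± 0.09, adjusted p 0.0134), and missed it without anterior replicate 1 or posterior replicate 1 (adjusted p 0.0778 and 0.0696). DCTCF1 was the lowest line at both bins. Bin 43 was at 10.1 in DCTCF1, 14.1 in DCTCF5 and 13.3 in D35, against 16.35 in anterior and 17.3 in posterior limb bud. Bin 49 was at 14.8, 22.4 and 21.9 in the lines, against 34.9 and 32.8. Of the 26 other desert bins only 3 were higher in ESC with bin 21, and their median difference was -0.23. The 8 called differences kept their direction when DCTCF1 replicate 1 alone stood for the ESC, a comparison chosen after seeing the data. It was the only DCTCF1, DCTCF5 or D35 library run in 2015, the run year of the limb bud libraries. The difference of bin 49 with bins 59 to 64 then went from 0.28 to 0.082. With bin 21, where DCTCF1 was the lowest line, this comparison cannot tell run year from line. The ESC were cultured E14 cells that carried edits and the embryos were of strain CD1, so tissue, culture, edit and strain cannot be told apart.

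**Figure D5:**
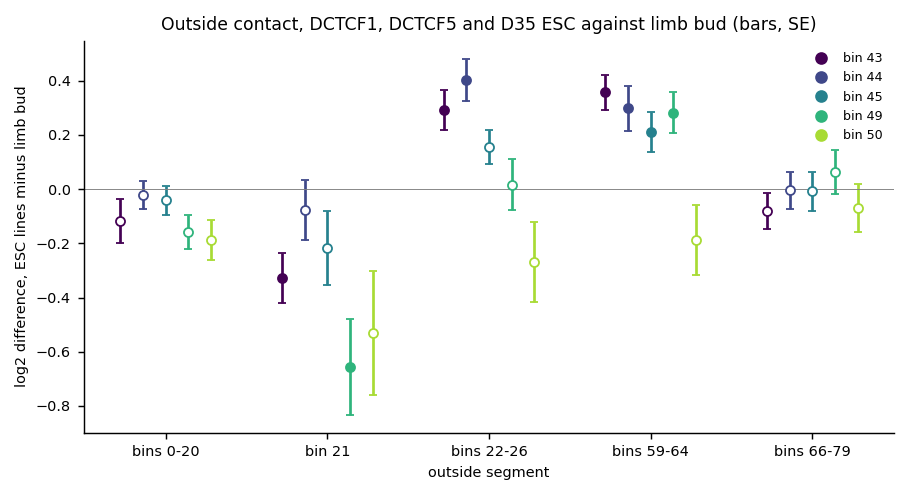
Difference of mean contact (log2, DCTCF1, DCTCF5 and D35 ESC minus limb bud) of each of the 5 bins with 5 outside segments, with SE bars from limma; filled points passed the threshold. Bins 43, 44, 45 and 49 are higher in ESC with bins 59 to 64, by 0.21 to 0.36, while every bin is lower with bin 21.

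Of single outside pairs 17 of 225 passed, 10 higher and 7 lower in ESC, a smaller share than the 12.3% of 2778 pairs over the region. The 5 higher pairs of smallest p were bin 44 with bins 67, 26 and 59 and bins 43 and 49 with bin 61. Bin 44 with bin 67 was at 16.8 to 26.9 in ESC and 11.0 to 13.6 in limb bud (0.57 ± 0.11, limma adjusted p 0.0061). Bin 43 with bin 61, a strong partner above, was at 31.1 to 42.4 against 16.6 to 25.9 (0.57 ± 0.13, adjusted p 0.0125), and bin 44 with bin 26 at 26.5 to 41.5 against 14.9 to 24.5 (0.60 ± 0.13, adjusted p 0.0130). Bin 49 with bin 61 (0.51) and bin 44 with bin 59 (0.38) had adjusted p of 0.0163 and 0.0165. The lower pairs were bin 50 with bins 18 and 19, which share the values 3.96 to 6.11 against 6.33 to 14.5 (-0.54 ± 0.13, adjusted p 0.0138), and bin 44 with bins 78 and 79 and bin 45 with bin 78, which share another (-0.40, adjusted p 0.0242). Of the 7 lower pairs 6 lay with bins 0 to 20 or 66 to 79, and 1 was bin 49 with bin 21. The 6 repeat the shared values above, so they hold fewer distinct values than pairs. Counts of called pairs, here and over the region, are therefore not counts of independent contacts.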

How the data were processed

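The 5C libraries were made from formaldehyde-fixed cells with HindIII, per the labels' protocols. The authors deposited a contact signal for each pair of 21 kb bins (mm9, per the file headers), with normalization and smoothing not stated there and with unknown read depth. For limb bud the deposited counts per pair of HindIII fragments were also used. Replicate matrices were used, not sums. Members and lists were chosen with earlier results of these data known.

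Each library was scaled to the mean total of all libraries over pairs at least 2 bins apart, and contact values in the text are on this scale. Tested values were log2(value + pseudocount), the pseudocount being the 5th percentile over the libraries of a fit (4.55 ESC, 5.48 embryo, 4.75 all), so folds of low values are understated. Tested pairs had this separation and were above 0 in at least 50% of libraries. Tests were made with limma 3.58.1 and, for counts, edgeR 4.0.16, in R 4.3.3, with Benjamini-Hochberg adjustment over all features of a contrast and a threshold of 0.05. DESeq2 1.42.0 was an alternative. All ESC lines share the 2 wild type libraries. The text names the called means (up to 10), 5 called pairs in each direction, and the 3 of smallest p where none passed. Scripts were tested on simulated data. Alternatives were other pseudocounts, scalings, segments and windows, a replicate block, run year and leaving out each library.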

Additional observations from a re-analysis of the deposited data

Results flagged for a closer look

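The mean outside contact of 3 of the 5 bins lay above wild type in some lines and below it in others, with every library of such a line on the same side of both wild type libraries. This holds for values scaled to the library total, and at bins 44 and 45 the directions in DCTCF1, DCTCF2 and, at bin 45, DCTCF4 changed with the scaling. The other desert bins were not counted in this way, so lines on both sides of wild type are not a result about the 5 bins. At bin 44 the ratio to wild type was 1.09 in DCTCF1, 1.04 in DCTCF4 and 1.15 in D35, against 0.951 in DCTCF2. At bin 45 it was 1.09 in DCTCF1, 1.03 in DCTCF4 and 1.19 in D35, against 0.974 in DCTCF2 and 0.854 in DCTCF5. Under median scaling DCTCF1 turned to 0.985 at bin 44 and 0.982 at bin 45, and DCTCF2 to 1.07 and 1.10, while with observed over expected values DCTCF2 turned to 1.005 and DCTCF4 to 0.993 at bin 45. D35, at 1.04 and 1.08 under median scaling, and DCTCF5, at 0.811 at bin 45, kept their direction. These scalings of bins 44 and 45 were chosen after seeing the data. At bin 50 the ratio was 1.30 in D35, against 0.603 in DCTCF1, 0.667 in DCTCF2 and 0.675 in DCTCF4, and these 4 kept their direction under both scalings. The difference between lines was not tested in any of these cases, and the ratios share the 2 wild type libraries. Bins 44 and 45 also share most of their outside values. Both D35 libraries were run in a later year than any wild type library.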

How the results depend on the processing

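For DCTCF1 against wild type, 0 means of the 5 bins passed, and 2 did with observed over expected values (16 of 457 over all bins), 3 with scaling to the library median (24 of 457) and 2 with 1 segment on each side (6 of 154). For D35 the last setting gave 3 means (24 of 152 over all bins), and observed over expected values gave 1 single pair (33 of 2778). For ESC against limb bud the 8 called means became 4 with observed over expected values (132 of 377 over all bins), 3 with 1 segment on each side (49 of 152) and 5 to 11 without any 1 library, with the lowest count without anterior limb bud replicate 2. The 17 pairs became 5 to 23, with the lowest count without anterior limb bud replicate 1. The 0 insulation calls became 4 with a window of 8 bins (44 of 64 over all bins) and 0 to 2 without any 1 library, with 2 without DCTCF5 replicate 2 (36 of 70), and the 0 fragment pairs became 9 with DESeq2 (111 of 14065). The ratio of bin 50 to wild type under median scaling was 0.545 in DCTCF1, 0.751 in DCTCF2, 1.05 in DCTCF3 and 1.18 in D35, and with observed over expected values 0.701 in DCTCF2 and 1.19 in D35. With the replicate block 8 means and 15 pairs passed for ESC against limb bud, and 0 of the 5 bins in the other comparisons, so no count for the 5 bins moved by over 1.5 times. Over all bins the called means then went from 8 to 1 of 377 in D35 and from 3 to 5 of 457 in DCTCF1. The labels give no meaning to a replicate number, and the replicate differences of 21 pairs of ESC groups correlated at -0.11 to 0.11, those of the limb bud groups at -0.029.

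Insulation differences near 0 changed sign, and the cause was not tested. Posterior minus anterior limb bud became -0.026 with a window of 3 and -0.044 with a window of 8 at bin 44, 0.028 with a window of 3 at bin 45, and 0.099 with a window of 3 and 0.011 with the profile divided by its SD at bin 49. Without any 1 library it ran from -0.070 to 0.090 at bin 44, -0.045 to 0.0062 at bin 45, -0.12 to 0.10 at bin 49 and -0.035 to 0.074 at bin 50. ESC minus limb bud became -0.13 with a window of 8 at bin 43 (limma adjusted p 0.0187) and -0.067 with the profile divided by its SD at bin 50. Without any 1 library it ran from -0.011 to 0.017 at bin 43, -0.047 to 0.037 at bin 44 and -0.021 to 0.041 at bin 50. Ratios of outside contact to wild type turned under median scaling to 0.985 (DCTCF1) and 1.07 (DCTCF2) at bin 44 and 0.982 and 1.10 at bin 45, and with observed over expected values to 1.005 (DCTCF2) and 0.993 (DCTCF4) at bin 45, scalings chosen after seeing the data. Of the other values of single means, pairs and bins, 513 kept their side of the threshold and direction, 8 ratios at bins 44 and 45 kept their direction and moved by more than the spread, 48 lost the call and 14 gained it. With 2 libraries a group and unknown read depth, small differences were not detectable.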
